A study of Homo sapiens with 6 samples.

Results

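Pyrimidine nucleotides are needed for RNA, DNA, sugar donors and phospholipid precursors. The transcripts described here encode 9 enzymes, all present among the 17013 genes of the deposited table: CAD, DHODH and UMPS, which build UMP, CTPS1 and CTPS2, which turn UTP into CTP, and RRM1, RRM2, TYMS and TK1, which supply deoxynucleotides for DNA. The rule takes them by gene symbol alone, although the set was proposed with earlier results of these data known. RNA came from Y79, an established human retinoblastoma line with an amplified MYCN gene, and was poly(A)-selected and sequenced from both fragment ends. Cells carried either a control shRNA (3 libraries, genotype labelled MYCN wild-type) or a shRNA against MYCN (3 libraries, genotype labelled MYCN knockdown), and all 6 libraries are labelled as batch 1. The comparison asks how these transcripts differ when MYCN is targeted. The series text calls the libraries biological replicates. How many hairpins were used, their sequences and the time of harvest are unknown here, so a spread between hairpins was not measured.

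In the de novo pathway, CAD joins glutamine, bicarbonate and aspartate into the first pyrimidine ring precursor, DHODH oxidises that precursor at the inner mitochondrial membrane and passes the electrons to ubiquinone, and UMPS completes UMP. Ribonucleotide reductase, made of the large subunit RRM1 and the small subunit RRM2 or its paralogue RRM2B, converts ribonucleotides to deoxyribonucleotides, and TYMS and TK1 supply thymidylate by methylation of dUMP and by salvage of thymidine. MYC family proteins are known to bind E-box sequences, of which CACGTG is the canonical form, and CAD is a textbook target. RRM2, TYMS and TK1 are known as S phase genes, controlled through E2F factors and, in RRM2 and TK1, through CCAAT boxes bound by NF-Y.

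Of the 9 transcripts, 5 rose with the MYCN shRNA, 3 fell and 1 did not pass the test (edgeR quasi-likelihood test, Benjamini-Hochberg adjusted over 12819 tested genes). The early de novo steps fell: DHODH by 1.02 ± 0.064 (SE) and CAD by 0.60 ± 0.039 on the log2 scale. The deoxynucleotide genes RRM2 (0.77 ± 0.039) and TYMS (0.59 ± 0.038) rose, as did CTPS1 (0.41 ± 0.039), UMPS (0.22 ± 0.058) and RRM1 (0.13 ± 0.040), while the salvage kinase gene TK1 fell by 0.29 ± 0.058 and CTPS2 measured -0.02 ± 0.062. Across all tested genes 75.8% were called, 38.0% higher and 37.9% lower, so 8 called of 9 is near the background, and the members are described here by their direction and size rather than by that count. With library sizes as the only scaling, which moved the median of all tested genes from 0.00 to 0.19 on the log2 scale, 6 members were higher and 2 lower, against 51.5% and 26.1% of all tested genes: the call for TK1 was lost and CTPS2 was called higher.

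Depth was 15490263 to 16078416 estimated counts per library, and the biological coefficient of variation was 3.34%. MYCN itself, the targeted gene (chromosome 2, 15940564 to 15947007, GRCh38), measured 3045.8, 3127.9 and 2875.8 CPM (counts per library scaled to a common size, with TMM factors, as for all CPM values here) with the control shRNA. With the MYCN shRNA it measured 2413.4, 2283.8 and 2195.2 CPM. It fell by 0.39 ± 0.043 on the log2 scale (edgeR adjusted p = 8.03e-11), so most of the transcript remained in every library labelled MYCN knockdown. Of 10 photoreceptor lineage markers, 9 reached 1 CPM in all libraries, with summed levels of 2254.6 to 2345.6 CPM in controls and 2271.7 to 2324.7 CPM with the MYCN shRNA. Behind these near-equal sums, 7 of the 9 tested markers rose and 2 fell, with the cone phosphodiesterase gene PDE6C from 1.21 to 18.4 CPM, the rod factor gene NRL from 145.2 to 348.3 CPM and OTX2 down from 1077.9 to 679.5 CPM. OPN1SW, the short-wave cone opsin gene, was at or near 0 in all libraries. Markers of other cells were low apart from GLUL, which carried the sum of the 5 Müller glia markers (829.5 to 849.3 CPM in controls, 647.7 to 669.9 CPM with the MYCN shRNA) while RLBP1, AQP4 and GFAP stood at or near 0. Summed levels in controls and with the MYCN shRNA were 3.93 to 4.66 and 31.3 to 35.0 CPM for 3 endothelial markers, 2.22 to 2.67 and 5.06 to 6.43 CPM for 5 fibroblast markers, 2.70 to 2.89 and 10.2 to 11.4 CPM for 4 pigment epithelium markers, and 4.37 to 4.67 and 5.47 to 6.47 CPM for 5 immune markers. VWF made up nearly all of the endothelial sum, with PECAM1 near 0 and KDR at 0. The part of these markers in the results was not tested.

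Promoter windows of 300 bases (250 upstream and 50 downstream of a start site) were taken from RefSeq (GRCh38.p14), in which all 9 genes were found, and searched on both strands for CACGTG, for CCAAT, and for the E2F-type sequences TTTGGCGC, TTTCCCGC and TTTCGCGC. They are shown because CCAAT is shared by genes with opposite changes, while CACGTG and an E2F-type match each occur in 1 gene. Each line is written 5′ to 3′ on the strand of the gene, with the match in capitals and up to 10 bases on each side. RRM2 holds 3 CCAAT matches in the window of 1 start site, each followed by the letters gggaaggg, and 1 more, not followed by them, in the window of another start site.
RRM2, chr2:10122318-10122333, + strand: tCCAATcgctgctcct
RRM2, chr2:10122606-10122630, + strand: caaggcgcagCCAATgggaagggtc
RRM2, chr2:10122636-10122660, + strand: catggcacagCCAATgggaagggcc
RRM2, chr2:10122663-10122687, + strand: ggcaccaaagCCAATgggaagggcc
RRM1, chr11:4094647-4094671, + strand: atgtccatatCCAATggggcccatg
DHODH, chr16:72008712-72008736, + strand: accatctcctCCAATggaagggaga
DHODH, chr16:72008575-72008600, + strand: cgctactgcgCACGTGcacccaacca
TK1, chr17:78187115-78187139, − strand: ccgggcgctgATTGGccccatggcg
TK1, chr17:78187084-78187108, − strand: ccggctcgtgATTGGccagcacgcc
TYMS, chr18:657604-657631, + strand: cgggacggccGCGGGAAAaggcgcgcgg

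In TK1 the capitals read ATTGG, the reverse complement of CCAAT, and in TYMS GCGGGAAA, the reverse complement of TTTCCCGC. CCAAT occurs in 34.61% of the 35116 promoter windows, CACGTG in 7.26% and any of the 3 E2F-type sequences in 2.74%. Within these windows CACGTG was found for DHODH and for no other member, and an E2F-type sequence for TYMS and for no other member. Bases outside the windows, such as those more than 50 bases downstream of a start site, were not searched. Other spellings of E-box or E2F sites were not searched either, so a member without a match may still hold such a site. CAD had a single CCAAT match at the far upstream end of its window, and the windows of UMPS, CTPS1 and CTPS2 held none of these letters. RRM2 and RRM1, which rose, and CAD, DHODH and TK1, which fell, all hold CCAAT, with the CAD match not printed above. The TK1 matches lie in the window of 1 start site, and the window of its other start site held none. The shares above are per window, and some members have more than 1 window. A match describes letters only, and no binding was measured in these libraries.

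CAD (chromosome 2, 27217390 to 27243943) was lower with the MYCN shRNA in every library. It measured 512.8, 507.2 and 479.7 CPM in controls and 335.1, 317.0 and 334.2 CPM with the MYCN shRNA, a decrease to 0.658 of the control level (edgeR adjusted p = 1.23e-17). The groups lay far apart compared with their own spread (SD 17.7 and 10.2 CPM, n = 3 each).

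DHODH (chromosome 16, 72008588 to 72027664) had the lowest log2 fold change of the 9. By TMM scaling with all libraries it was the single member past 2-fold, where 5.25% of tested genes were called at least 2-fold lower. Its values were 46.9, 52.1 and 45.9 CPM in controls against 22.9, 23.6 and 25.3 CPM with the MYCN shRNA (edgeR adjusted p = 3.62e-18). Control replicate 2 was the highest library, and without it the log2 fold change was -0.96, short of 2-fold. The change was also short of 2-fold without MYCN shRNA replicate 1 (-0.98), with upper quartile scaling (-0.98) and with library sizes alone (-0.83). The 2 groups rested on 2159 and 1190 counts in total.

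UMPS (chromosome 3, 124730366 to 124749273), the final enzyme of the same pathway, went the other way. It measured 38.9, 41.1 and 44.2 CPM in controls and 47.4, 46.3 and 51.1 CPM with the MYCN shRNA, so the groups did not overlap, but the gap between the nearest libraries was smaller than the range inside either group. The rise to 1.17 times the control level passed the test (edgeR adjusted p = 8.31e-04). The 3 genes of UMP synthesis therefore did not change in 1 direction.

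**Figure D1:**
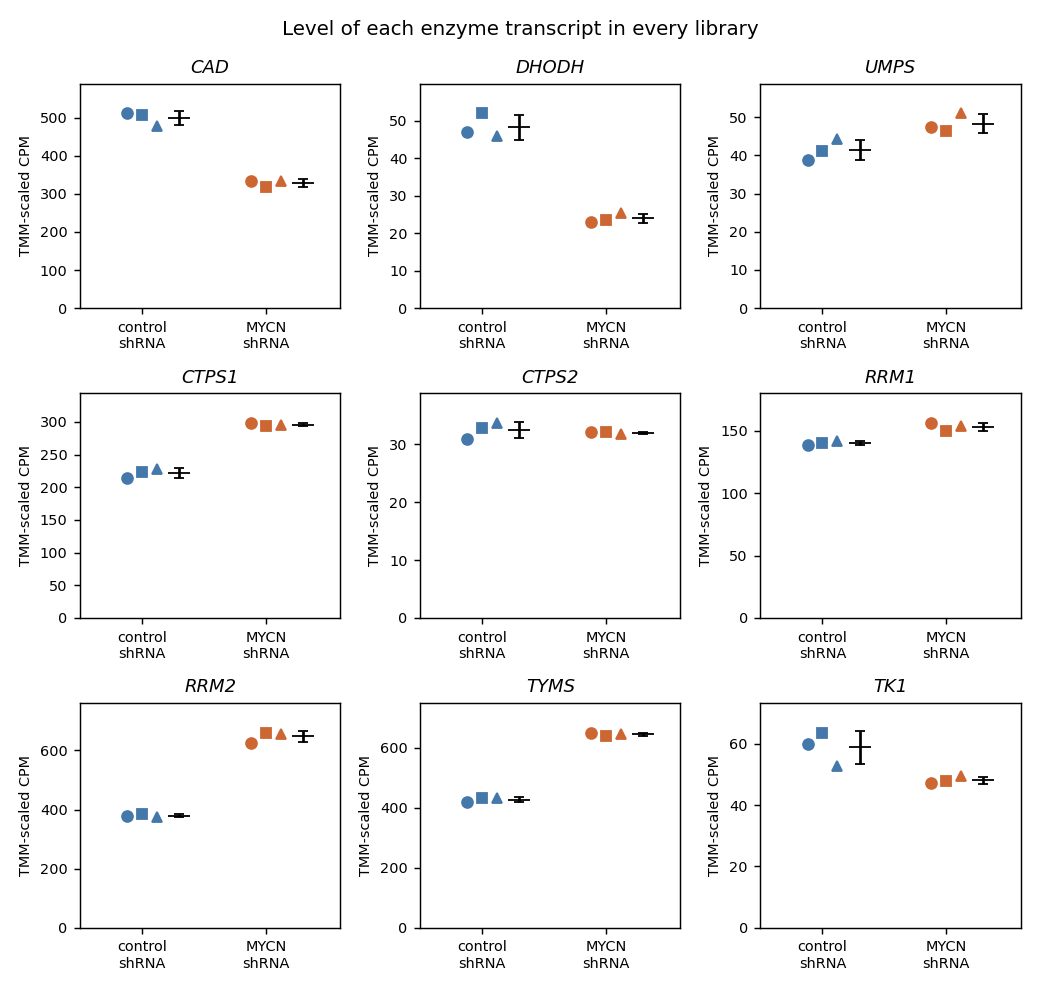
Level of each of the 9 transcripts in TMM-scaled CPM (vertical axes from 0, each on its own scale) in the 3 control shRNA libraries (blue) and the 3 MYCN shRNA libraries (orange), with circle, square and triangle for replicates 1, 2 and 3 and the black bar for mean and SD. The groups do not overlap for any gene except CTPS2, whose MYCN shRNA libraries at 31.8 to 32.1 CPM lie inside the control range of 30.9 to 33.7 CPM. Among all tested genes the groups did not overlap for 76.8%.

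CTP synthase is encoded by a pair of paralogues, of which CTPS1 is known as the form on which proliferating lymphocytes depend. CTPS1 (chromosome 1, 40979335 to 41012565) measured 214.0, 223.9 and 228.6 CPM in controls and 298.6, 293.6 and 295.5 CPM with the MYCN shRNA. It rose to 1.33 times the control level (edgeR adjusted p = 8.27e-13), and every MYCN shRNA library stood well above every control. CTPS2 (chromosome X, 16588003 to 16712936) measured 30.9, 32.8 and 33.7 CPM in controls and 32.1, 32.1 and 31.8 CPM with the MYCN shRNA, with overlapping groups and an edgeR adjusted p of 0.798. Its direction depended on scaling, with log2 fold changes of -0.02 by TMM, 0.02 by upper quartile and 0.16 by library sizes alone (adjusted p = 0.0167).

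RRM2 (chromosome 2, 10120698 to 10131419) had the highest log2 fold change among the members. It measured 378.6, 384.7 and 374.2 CPM in controls and 624.7, 660.2 and 656.5 CPM with the MYCN shRNA, a rise to 1.71 times the control level (edgeR adjusted p = 1.85e-21). The lowest MYCN shRNA library was far above the highest control. RRM2 and CAD lie on the same chromosome as MYCN, 5.81 and 11.27 Mb from it, and they changed in opposite directions. RRM2 has processed pseudogenes (RRM2P2, RRM2P3 and RRM2P4 in GENCODE 29), and a further gene model shares 8681 bases with it on its own strand. That model is absent from the deposited table, and the RRM2 counts were whole numbers in every library. The RRM2 count may still depend on how shared reads were assigned.

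RRM1 (chromosome 11, 4094707 to 4138876), the partner subunit, changed much less. It measured 138.2, 140.0 and 141.9 CPM in controls and 156.4, 150.1 and 153.4 CPM with the MYCN shRNA, a rise to 1.09 times the control level (edgeR adjusted p = 0.0035). The groups did not overlap, and their narrow spread (SD 1.86 and 3.16 CPM, n = 3 each) let a change of this size pass.

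TYMS (chromosome 18, 657604 to 673578), which makes thymidylate, measured 418.3, 431.3 and 430.7 CPM in controls and 649.7, 638.4 and 644.8 CPM with the MYCN shRNA. It rose to 1.51 times the control level (edgeR adjusted p = 6.14e-18). TYMS was the single member whose deposited counts were not whole numbers, and this held in all 6 libraries. It shares 3255 bases with ENOSF1 on the opposite strand, and the counts of ENOSF1 were not whole either. ENOSF1 itself rose from 34.7 ± 1.81 to 46.7 ± 0.469 CPM (SD, n = 3). Without strand, reads from the shared stretch cannot be told apart, although ENOSF1 held 1547 and 2325 counts per group against 19051 and 32071 for TYMS.

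TK1 (chromosome 17, 78174075 to 78187233), which phosphorylates thymidine in the cytosol, measured 59.9, 63.6 and 52.8 CPM in controls and 47.2, 47.7 and 49.3 CPM with the MYCN shRNA. It fell to 0.817 of the control level (edgeR adjusted p = 2.03e-05), with control replicate 3 closest to the other group. With library sizes alone its log2 fold change was -0.11 and did not pass (adjusted p = 0.0925). TK1 thus did not rise with RRM2 and TYMS under TMM, RLE, upper quartile or library size scaling.

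**Figure D2:**
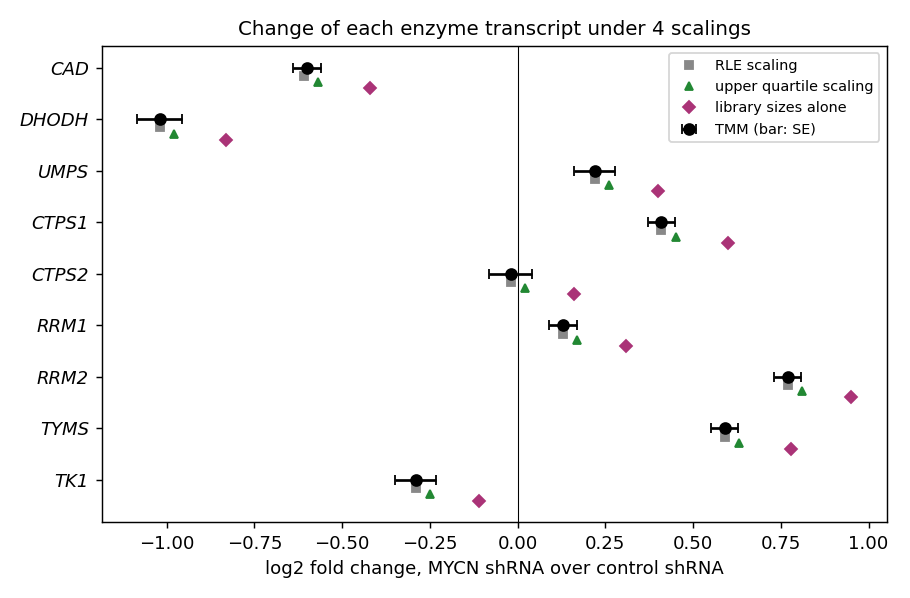
Log2 fold change of each member (horizontal axis, MYCN shRNA over control shRNA) by TMM scaling, with bars of 1 SE, and by RLE, upper quartile and library size scaling. DHODH and CAD lie below 0 and UMPS, CTPS1, RRM1, RRM2 and TYMS above 0 under all 4 scalings, while CTPS2 crosses 0 and TK1 moves from -0.29 to -0.11 with library sizes alone.

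Levels of different genes were compared per transcript length, as TPM (counts divided by length and scaled to a common total) over the longest protein-coding transcript of GENCODE 29. In controls the order was TYMS (499 ± 3.5 TPM, SD, n = 3), RRM2 (201 ± 4.9), CAD (134 ± 6.8), CTPS1 (90.2 ± 1.5), RRM1 (88.5 ± 0.40), TK1 (68.0 ± 7.0), DHODH (19.5 ± 1.4), CTPS2 (14.6 ± 0.41) and UMPS (11.9 ± 0.57). CTPS1 and RRM1 were the one neighbouring pair in this order with overlapping ranges. With the MYCN shRNA TYMS (972 ± 17 TPM) and RRM2 (442 ± 12) stayed first and second, CTPS1 (155 ± 3.0) and RRM1 (125 ± 3.2) stood above CAD (113 ± 3.2), and TK1 (71.7 ± 0.60), CTPS2 (18.6 ± 0.38), UMPS (17.9 ± 0.65) and DHODH (12.4 ± 0.44) followed. The place of DHODH depends on the transcript taken: with its principal transcript it measured 23.2 TPM and stood above CTPS2 (17.5) and UMPS (16.8). By longest transcript, CTPS2 and UMPS were the neighbours that overlapped. TPM were not scaled between libraries and their median log2 difference over all tested genes was 0.37, so they serve for the order inside a group and not for a change between groups. Ranks below RRM2 depend on the length taken. The length used for CTPS1 was 4790 bases against 3201 for its principal transcript, and that for DHODH 4824 against 2426. With the union of exons as length, CAD (139 TPM) stood above RRM1 (131) and CTPS1 (91.8) with the MYCN shRNA.

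**Figure D3:**
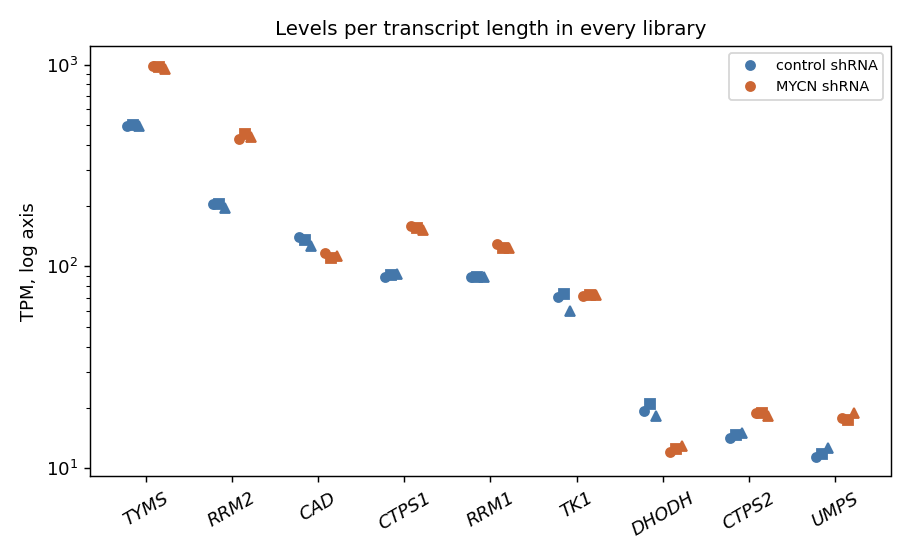
TPM of each member (log axis) in the control shRNA libraries (blue) and MYCN shRNA libraries (orange), with circle, square and triangle for replicates 1, 2 and 3, ordered by the control mean. TYMS is highest in all 6 libraries, and DHODH is lowest in the MYCN shRNA libraries by the longest transcript plotted here, but not by its principal transcript.

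Ratios of counts between 2 genes inside a library do not depend on scaling between libraries, and 5 pairs were compared. With 3 libraries against 3 an exact two-sided permutation test cannot go below p = 0.10, the value that every pair reached, and adjustment over the 5 pairs left p = 0.10. In each pair the groups did not overlap, as they did not for 76.8% of single tested genes in CPM. The RRM2 to RRM1 ratio was 2.74, 2.75 and 2.64 in controls and 3.99, 4.40 and 4.28 with the MYCN shRNA, or 1.56 times as high. The small subunit transcript was thus higher relative to the large subunit transcript in all 3 MYCN shRNA libraries.

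RRM2B encodes the small subunit that serves repair and mitochondrial DNA outside S phase and is known as a p53 target. It rose more than RRM2 did, from 51.2, 52.7 and 53.0 CPM to 128.9, 128.2 and 132.3 CPM (log2 fold change 1.31 ± 0.046, edgeR adjusted p = 1.17e-26). The RRM2 to RRM2B ratio was therefore lower with the MYCN shRNA, at 4.85, 5.15 and 4.96 against 7.39, 7.29 and 7.06 in controls, although RRM2 still had more counts than RRM2B in every library.

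For CTP synthase the CTPS1 to CTPS2 ratio was 6.94, 6.83 and 6.79 in controls and 9.31, 9.13 and 9.28 with the MYCN shRNA, 1.35 times as high, with the smallest SE of the log2 difference among the 5 pairs (0.43 ± 0.013). TK1 and TK2, the cytosolic and the mitochondrial thymidine kinase, changed in opposite directions. TK2 rose from 15.7 ± 0.406 to 22.9 ± 1.08 CPM (SD, n = 3), and the TK1 to TK2 ratio was 3.90, 4.08 and 3.27 in controls against 2.13, 1.97 and 2.20 with the MYCN shRNA. The CAD to UMPS ratio, first against last enzyme of UMP synthesis, was 13.2, 12.3 and 10.8 in controls and 7.08, 6.85 and 6.54 with the MYCN shRNA, or 0.564 of the control ratio.

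**Figure D4:**
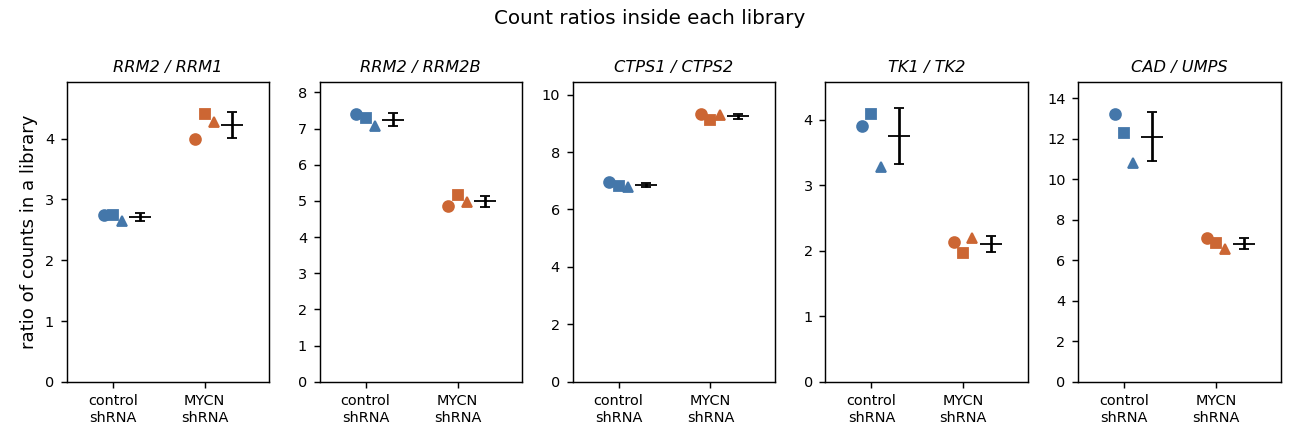
Ratio of the counts of 2 genes inside each library (vertical axes from 0) for 5 pairs, with control shRNA libraries in blue, MYCN shRNA libraries in orange, symbols for replicates 1 to 3 and black bars for mean and SD. RRM2 to RRM1 and CTPS1 to CTPS2 are higher in all 3 MYCN shRNA libraries, and RRM2 to RRM2B, TK1 to TK2 and CAD to UMPS are lower in all 3.

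Genes around the members were read from lists of textbook pathway genes. The counts of each list stand beside 38.0% higher and 37.9% lower among all tested genes. With library sizes alone these shares were 51.5% and 26.1%. Of 15 uptake and salvage genes 11 were tested, of which 5 rose and 3 fell, and their median was 0.18 on the log2 scale against 0.00 for all tested genes. DCK, the deoxycytidine kinase gene, rose from 93.6 ± 0.609 to 166.7 ± 6.85 CPM and UCK1, a uridine-cytidine kinase gene, from 27.9 ± 1.11 to 47.6 ± 2.78 CPM. UPP1, which encodes uridine phosphorylase, fell by 0.79 on the log2 scale and the equilibrative nucleoside transporter gene SLC29A2 by 0.67. The other transporter SLC29A1 measured 128.7 ± 0.984 and 128.6 ± 4.23 CPM and did not pass. CDA, the cytidine deaminase gene, was near 0 and was not tested.

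Among 8 nucleotide kinase genes 3 rose and 4 fell, with a median of -0.47. CMPK1, which phosphorylates UMP and CMP, rose from 211.9 to 275.3 CPM (log2 fold change 0.38 ± 0.040, SE). CMPK2, the gene of a mitochondrial, interferon-induced nucleotide kinase, rose from 1.78 ± 0.488 to 10.7 ± 0.507 CPM. The diphosphate kinase genes NME1 (498.0 ± 11.8 to 266.4 ± 10.4 CPM) and NME4 (84.9 ± 3.66 to 36.0 ± 1.19 CPM) fell. NME1 and NME2 are close in sequence and adjacent, so the split between them depends on how shared reads were counted. DTYMK, which phosphorylates dTMP, was the third kinase gene to rise (log2 fold change 0.50) and was singled out after its value was seen, since it acts next after TYMS and TK1.

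Among 13 genes that keep the deoxynucleotide pool, namely RRM2B, enzymes that clear or salvage deoxynucleotides, folate enzymes and reductants, 4 rose and 6 fell (median 0.01). With library sizes alone 7 rose. Besides RRM2B, the folate enzyme gene SHMT1 rose by 0.34. DCTPP1, which removes dCTP, fell from 110.3 ± 5.96 to 53.1 ± 0.468 CPM and DUT, which keeps uracil out of DNA by cleaving dUTP to dUMP, from 135.0 ± 5.45 to 93.7 ± 0.741 CPM. SAMHD1, the deoxynucleotide triphosphohydrolase gene, measured 36.9 ± 0.305 and 37.3 ± 0.794 CPM and did not pass.

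Of 11 pyrimidine breakdown genes 5 were tested, all nucleotidase genes, of which 4 fell and none rose (median -0.19), with NT5C (-0.88) and NT5C2 (-0.26) leading. With library sizes alone 1 of them was called lower. DPYD, DPYS and UPB1, the enzymes of the reductive breakdown pathway, were at or near 0 in both groups.

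The purine pathway and the cell cycle lists give the setting. Of 13 de novo purine genes 10 fell and 3 rose (median -0.49). IMPDH2 and PFAS were the lower genes with the smallest p (log2 fold changes -1.22 and -0.91), and GMPS and PRPS2 the higher (1.01 and 1.03). CAD and DHODH thus moved in the direction of most purine genes, and UMPS in the other.

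Of 42 G1/S and replication genes 19 rose and 17 fell (median 0.05). Of 25 G2/M genes 7 rose and 10 fell (median -0.03), or 15 higher with library sizes alone. Among all tested genes 38.0% rose and 37.9% fell, or 51.5% higher with library sizes alone. CCNE2 and CCNE1, the cyclins E that act at S phase entry, rose by 2.24 and 1.39, while E2F2 (-1.09) and the replication initiation gene MCM10 (-0.92) fell. In the G2/M list CCNF, whose product directs RRM2 to degradation, rose by 0.56 and TOP2A by 0.31, while AURKB fell by 1.10 and NUSAP1 by 0.48. CCNE2 and CCNE1 were the only genes of either list with a higher log2 fold change than RRM2, and neither list moved in 1 direction. Whether the share of cells in S phase differed was not measured, and in bulk RNA a change in cell makeup and a change in RNA per cell cannot be told apart.

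**Figure D5:**
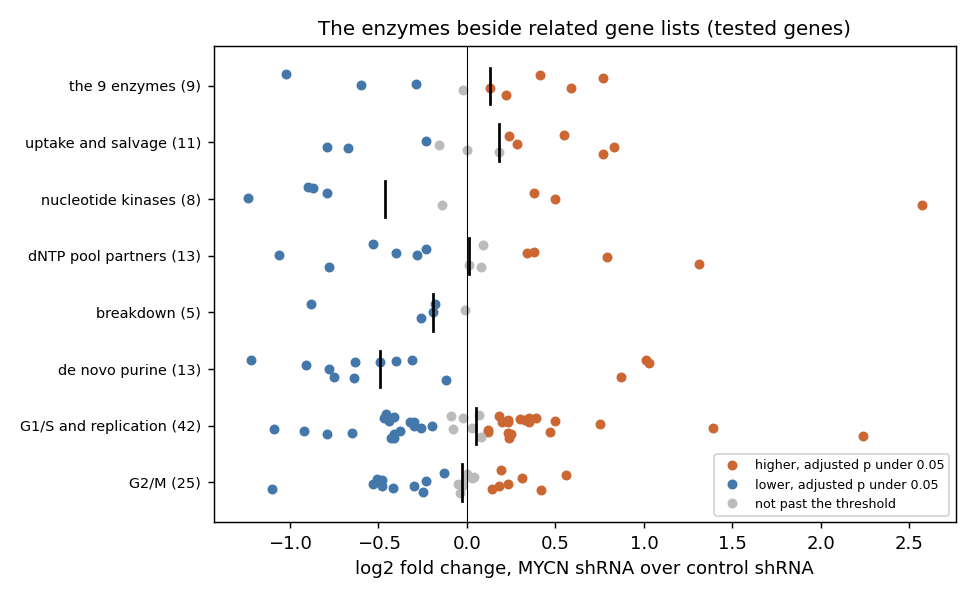
Log2 fold change (horizontal axis) of the 9 enzymes and of the tested genes of 7 related lists, with 1 point per gene, orange for higher and blue for lower at an adjusted p under 0.05, grey for genes that did not pass, and a black line at each median. The 9 enzymes spread from -1.02 to 0.77, most purine genes lie below 0, and both cell cycle lists lie on both sides of 0.

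An earlier pass over these fold changes named a pair of 7-base sequences, AGCACAA and GTGGATC, that also occur in MYCN. At least 1 of them occurs in the GENCODE 29 transcript of 4 of the 9 members (CAD, UMPS, CTPS2 and RRM1), or 44.4%, against 40.3% of 12723 tested genes with a transcript model. None of these matches lies in a 3′ UTR. CAD, which fell, carries both, UMPS and RRM1, which rose, carry GTGGATC, and CTPS2, which did not pass, carries AGCACAA. DHODH and TK1, which fell, and CTPS1, RRM2 and TYMS, which rose, carry neither. The sequences were chosen from these data, and their part in the results was not tested.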

How the data were processed

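Poly(A) RNA of 3 control shRNA and 3 MYCN shRNA libraries was sequenced, per the labels. The authors deposited estimated counts per gene symbol, not scaled between libraries (12.5% to 12.8% of values are not whole), per the file headers and values. Per the submitters' processing notes the genome build was GRCh38. For aligner, counter, strand and annotation, the choice is not given in the sources used here. Of 17035 rows, 22 held no values and were dropped.

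Counts were rounded, filtered with filterByExpr (12819 genes, 99.95% of counts) and tested with the quasi-likelihood test of edgeR 4.0.16 (R 4.3.3), with TMM scaling and Benjamini-Hochberg adjustment at 0.05 over all tested genes. Standard errors came from the F statistic. TPM used GENCODE 29 lengths. Ratios were tested by exact permutation (scipy 1.17.1). Alternatives were DESeq2 1.42.0, limma-voom (limma 3.58.1), other scalings and filters, a replicate block and each library left out. The longest principal transcript, as another length, was added after the data were seen.

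The deviations of same-numbered libraries from their group means correlated at 0.32, 0.22 and 0.19, so the numbers of the titles may mark a shared origin. Differently numbered libraries gave -0.21 to -0.014. Deviations inside a group cancel out, so these values are not independent of each other. No replicates held identical values, and chi-square per degree of freedom between replicates was 1.75 to 4.42.

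The members and lists were chosen with earlier results of these data known. Named genes are the members, MYCN, ratio partners, overlapping genes and, per list, the 2 called genes with the smallest p in each direction. SLC29A1, CDA, DTYMK, NME2, SAMHD1, DPYD, DPYS, UPB1 and markers were named after their values were seen. On simulated data for this comparison (12719 genes, 200 changed), 66.0%, 83.7% and 96.9% of genes changed 1.2-fold, 1.5-fold and 2-fold were recovered, with 10 unchanged genes called. The simulation gave all genes the same dispersion and changed few of them, whereas 75.8% of tested genes were called in the real data. These rates therefore need not hold for the real comparison.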

Additional observations from a re-analysis of the deposited data

How the results depend on the processing

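Directions and calls of CAD, DHODH, UMPS, CTPS1, RRM1, RRM2, TYMS and MYCN held under every scaling, filter, test and left-out library that was run. The log2 fold change of CTPS2 turned to 0.02 with upper quartile scaling, to 0.16 with library sizes alone and, with each library left out, ranged from -0.06 to 0.00 (the latter without control replicate 3), and that of TK1 was -0.11 with library sizes alone and no longer passed. With a 2-fold minimum, by TMM scaling with all libraries, 0 members were higher and 1 lower. That member, DHODH, fell short of 2-fold with upper quartile scaling, with library sizes alone and without control replicate 2 or MYCN shRNA replicate 1. With library sizes alone, 7 deoxynucleotide pool genes and 15 G2/M genes were called higher and 1 breakdown gene lower. Under that scaling 51.5% of all tested genes were called higher and 26.1% lower. With no filter 1 breakdown gene was called higher. Leaving out each library in turn kept 5 members higher and 3 lower. The replicate block also left 5 higher and 3 lower and changed no member's call; in the ratios its smallest possible p was 0.25. Another length definition kept TYMS and RRM2 first and second. The cause of these shifts was not tested. Depth limits the genes listed as near 0.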
